A study of Mus musculus with 12 samples.

Results

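Inducible nitric oxide synthase, encoded by Nos2, converts arginine to nitric oxide (NO) and citrulline, and 9 further genes that supply, share or follow this reaction were examined with it. Arg1 and Arg2 encode the arginases, Ass1 and Asl the 2 enzymes that rebuild arginine from citrulline, Slc7a1 and Slc7a2 the cationic amino acid transporters CAT1 and CAT2, Gch1 the first enzyme of tetrahydrobiopterin synthesis, and Odc1 and Azin1 ornithine decarboxylase and the antizyme inhibitor that keeps it active. The genes were chosen by name for these roles, with earlier results of these data known. They are 10 of the 18193 genes that had a probe set of their own on the Affymetrix mouse genome array used. In the data, 3 of the 10 genes, Nos2, Arg1 and Azin1, had a lower signal in Nos2-/- than in WT macrophages after stimulation. These 3 passed the test, and 0 genes with a higher signal did. Over all genes 1.91% were called lower and 1.03% higher, and Nos2 is itself the targeted gene. Stimulation itself moved 10 of the 10 genes in Nos2-/- cells, where 54.5% of all genes were called, and 9 of 10 in WT cells, where 58% were. The tenth call in Nos2-/- cells, Asl, was lost under 6 of 16 alternative settings.

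The arrays measured RNA of bone marrow-derived macrophages (BMDM), which are grown from marrow precursors in macrophage colony-stimulating factor. Stimulated Nos2-/- cells, from mice homozygous for the targeted allele of strain B6.129P2-Nos2tm1Lau/J, and stimulated WT cells, from C57BL/6 mice, received 100 ng/mL lipopolysaccharide (LPS, a bacterial endotoxin) with 50 ng/mL interferon-γ (IFNγ) for 8 h after 6 days of culture. Untreated Nos2-/- and untreated WT cells received the saline vehicle according to the methods, which give the same time for it, while the labels place these arrays ahead of the stimulation. Whether each response is matched for time in culture is therefore not settled. Each of the 4 groups had 3 arrays, labelled as biological replicates, and the donors were 6 to 10 weeks old, matched for age and sex and bred in the same room. The allele is carried in every cell of the mouse, and the labels do not describe the 2 genotypes as littermates. All signals below are log2 values from the robust multi-array average (RMA), on which a difference of 1 is a doubling. Within a group the arrays correlated at 0.996 or above over all probe sets, and the median probe set of an array lay between 5.14 and 5.21.

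Macrophages stimulated with LPS and IFNγ are known for strong NO production in the mouse. The synthase takes arginine from the cationic transporters and needs tetrahydrobiopterin as a cofactor, and its product citrulline can be returned to arginine by argininosuccinate synthase (Ass1) and argininosuccinate lyase (Asl). Arginases compete for the same arginine and make ornithine, from which ornithine decarboxylase makes putrescine, the first polyamine.

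Sequence upstream of the transcription start was on hand for 4 of the 10 genes, in 5 windows of the RefSeq annotation of GRCm38.p6. The 250 bases before the start are shown for Gch1, which rose with stimulation, and for both annotated starts of Slc7a1, which fell, because these are the 2 genes of the 4 with the larger stimulation responses. Capitals mark every motif match, and the sequences run 5′ to 3′ on the gene's own strand, which is the minus strand for both genes. The Gch1 window is chr14:47189414-47189663, and the Slc7a1 windows are chr5:148399905-148400154 (start 1) and chr5:148392816-148393065 (start 2).
Gch1: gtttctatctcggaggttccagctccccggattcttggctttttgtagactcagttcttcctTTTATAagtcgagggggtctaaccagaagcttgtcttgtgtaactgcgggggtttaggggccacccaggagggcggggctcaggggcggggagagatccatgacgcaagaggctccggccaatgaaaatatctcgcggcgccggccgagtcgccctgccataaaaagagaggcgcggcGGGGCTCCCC
Slc7a1 start 1: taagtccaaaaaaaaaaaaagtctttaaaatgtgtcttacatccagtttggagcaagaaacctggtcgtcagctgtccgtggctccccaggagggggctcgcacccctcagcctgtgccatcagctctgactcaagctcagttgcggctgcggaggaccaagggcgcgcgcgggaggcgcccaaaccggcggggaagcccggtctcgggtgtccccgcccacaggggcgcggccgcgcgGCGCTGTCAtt
Slc7a1 start 2: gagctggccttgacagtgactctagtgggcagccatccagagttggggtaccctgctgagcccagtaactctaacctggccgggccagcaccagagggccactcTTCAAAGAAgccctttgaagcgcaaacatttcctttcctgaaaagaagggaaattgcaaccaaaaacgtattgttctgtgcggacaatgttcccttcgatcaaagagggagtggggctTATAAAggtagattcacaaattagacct
The motifs were searched on both strands of 300-base windows that also include the first 50 transcribed bases. They were the kappa B consensus (by that name), the interferon-stimulated response element (GAAA, any 2 bases, GAAA), TTCNNNGAA (gamma-activated site), TGACGTCA (cAMP response element), ACGTG (hypoxia response core), TGACNNNGC (antioxidant response element core) and, for the TATA box, TATAAA. In Gch1 the capitals at position -10 are the kappa B consensus, which 4.51% of all 32851 windows also held, and those at -188 are a TATA box on the opposite strand (13.62% of windows). In Slc7a1 the capitals are the antioxidant core at -11 of start 1 (12.39% of windows), and the gamma-activated site at -146 (8.3%) and the TATA box at -28 of start 2. The Ass1 window held the hypoxia core (19.62% of windows), and the Odc1 window held 0 of the 7 motifs. A match of letters describes the window and is not a measured binding site.

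Nos2, the targeted gene, was measured by 1 probe set, and its signal was 7.74, 7.45 and 7.88 in stimulated Nos2-/- arrays, against 9.73, 9.81 and 9.64 in stimulated WT arrays. It was 5.15, 5.41 and 5.36 in untreated Nos2-/- arrays and 5.45, 5.40 and 5.65 in untreated WT arrays. Every stimulated Nos2-/- array thus lay below every stimulated WT array and above every untreated array, while the untreated genotypes overlapped. The stimulated genotypes differed by -2.03 ± 0.11 (Nos2-/- minus WT, SE), a 4.09-fold lower signal in Nos2-/- (limma, adjusted p = 1.7e-07). The Nos2 signal rose by 2.39 ± 0.11 in Nos2-/- cells (adjusted p = 2.4e-10) and by 4.22 ± 0.11 in WT cells (adjusted p = 9.5e-13), and the 2 responses differed by -1.84 ± 0.16 (adjusted p = 3.7e-05). Whether the probe set lies inside the part of the gene that the allele removes is not given in the sources used here, so the signal in Nos2-/- arrays neither checks the genotype nor measures functional message. These are bulk samples, in which fewer cells of a type and less RNA per cell cannot be told apart.

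**Figure D1:**
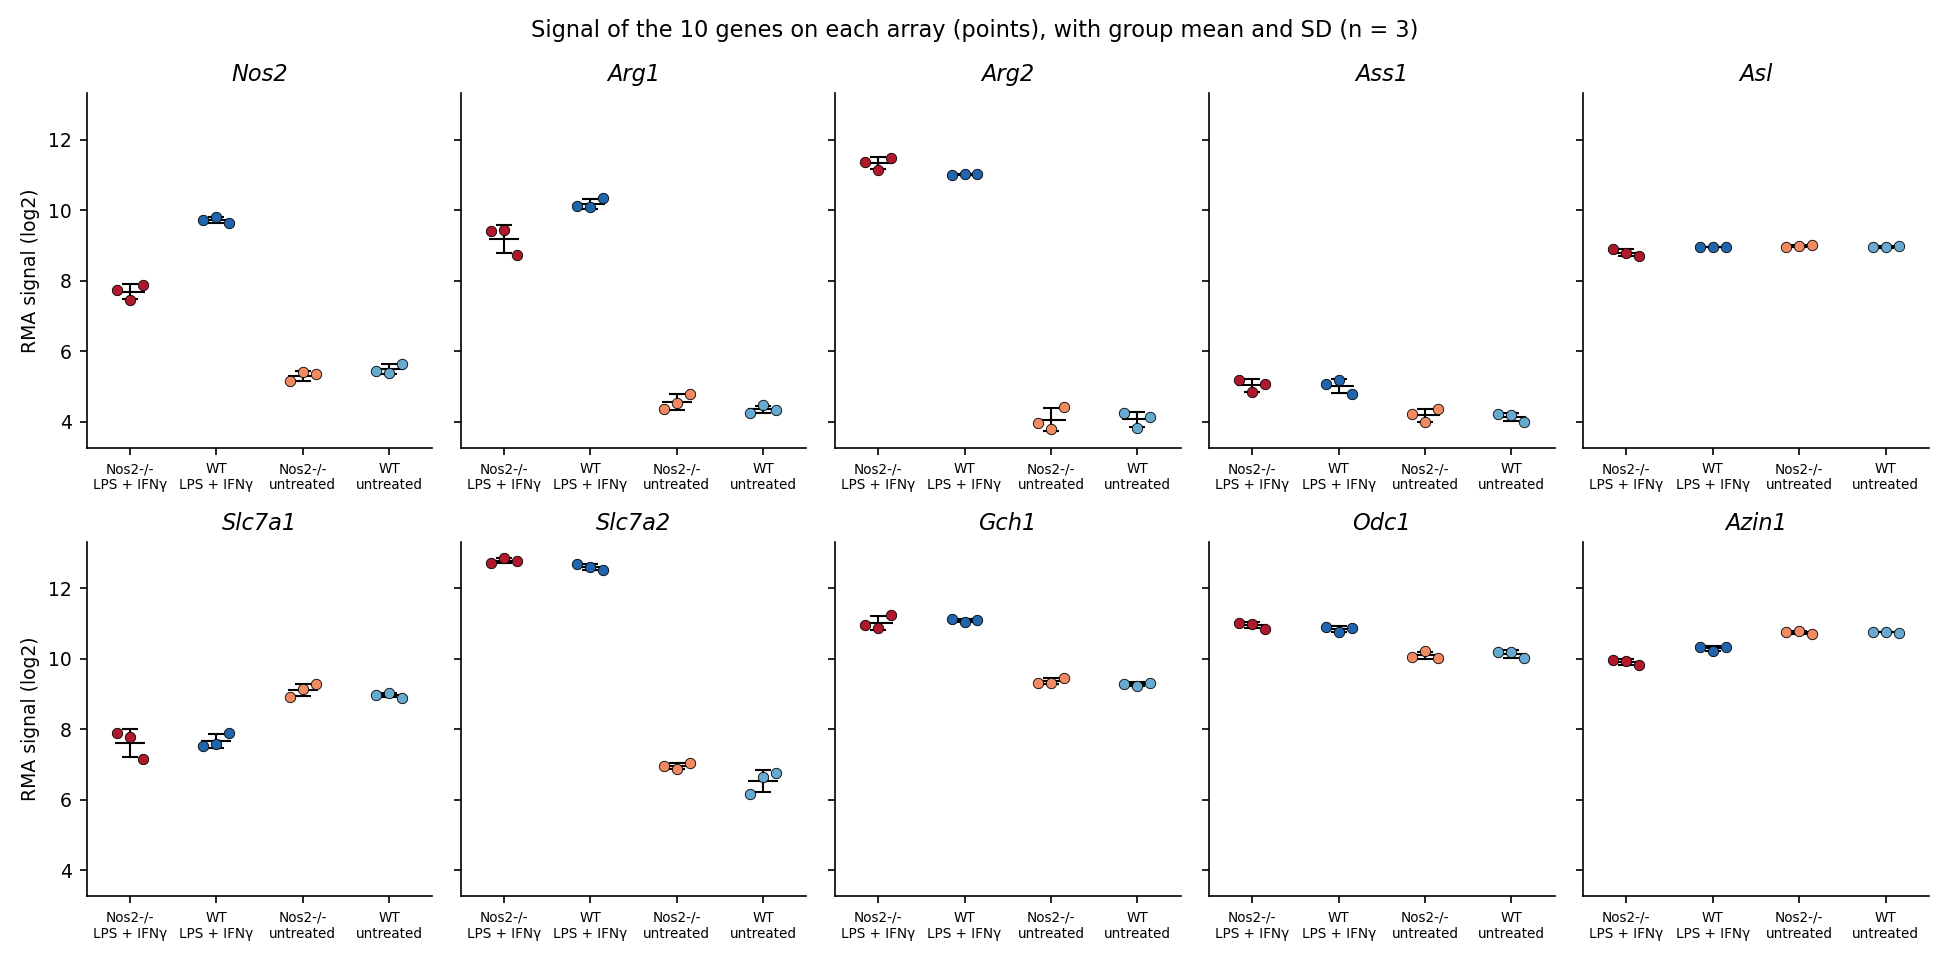
Each panel plots 1 gene, with the RMA signal (log2) on the vertical axis and the 4 groups on the horizontal axis. Points are arrays, and the bars are the group mean and SD of 3 arrays. Nos2 and Arg1 separate the stimulated genotypes most widely, with means of 7.69 in Nos2-/- and 9.73 in WT for Nos2, and 9.19 in Nos2-/- and 10.18 in WT for Arg1.

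At an adjusted p under 0.05, 3 of the 10 genes were lower in stimulated Nos2-/- cells and 0 were higher, where 1.91% of all genes were lower, 1.03% were higher and 2.94% were called in either direction. The arrays of the stimulated genotypes did not overlap for 6 of the 10 genes, against 17.1% of all genes. The median difference of the 10 genes was -0.07, and that of all genes was -0.01. In size regardless of sign, the median was 0.17 for the 10 genes and 0.08 for all genes. Nos2 is the targeted gene and so contributes to each of these counts.

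Both arginase genes were induced from below the array's median, Arg1 to a lower level in Nos2-/- cells. Arg1, the cytosolic arginase best known from liver and from alternatively activated macrophages, had signals of 9.40, 9.44 and 8.72 in stimulated Nos2-/- arrays, against 10.12, 10.08 and 10.33 in stimulated WT arrays. In untreated Nos2-/- arrays it was 4.35, 4.54 and 4.80, and in untreated WT arrays 4.26, 4.48 and 4.33. The stimulated genotypes did not overlap, and their difference was -0.99 ± 0.16, a 1.99-fold lower signal in Nos2-/- (adjusted p = 0.00374). The difference held its direction and its call when each of the 6 arrays was left out in turn, with values between -1.12 and -0.76. Arg1 rose by 4.62 ± 0.16 in Nos2-/- cells (adjusted p = 1.8e-11) and by 5.82 ± 0.16 in WT cells (adjusted p = 2.1e-12). The responses differed by -1.20 ± 0.23 (adjusted p = 0.0274), a call that was lost when any of 7 of the 12 arrays was left out, with adjusted p between 0.0506 and 0.0859. Those were replicates 2 and 3 of untreated Nos2-/-, replicates 1 and 3 of stimulated WT and each of the untreated WT arrays.

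Arg2, the mitochondrial arginase, had signals of 11.36, 11.14 and 11.48 in stimulated Nos2-/- arrays and 11.01, 11.03 and 11.02 in stimulated WT arrays. The untreated values were 3.96, 3.79 and 4.43 in Nos2-/- and 4.24, 3.82 and 4.15 in WT. All 3 stimulated Nos2-/- arrays lay above all 3 stimulated WT arrays, but the difference of 0.31 ± 0.15 did not pass the test (adjusted p = 0.357), with a 95% interval of -0.01 to 0.62. Arg2 had the largest response of the 10 genes in both genotypes. It rose by 7.27 ± 0.15 in Nos2-/- cells (adjusted p = 8.5e-14) and by 6.95 ± 0.15 in WT cells (adjusted p = 1.4e-13), and a second Arg2 probe set gave 6.80 in Nos2-/- and 6.49 in WT. In every untreated array Arg1 and Arg2 lay below the median of all probe sets, so these responses were measured from the lower part of the scale. The files give no detection call for a probe set.

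Of the 2 enzymes of citrulline recycling, Ass1 rose with stimulation in both genotypes, while Asl moved little. Ass1, which joins citrulline and aspartate, was measured by a dim probe set with values of 5.18, 4.83 and 5.08 in stimulated Nos2-/- arrays and 5.09, 5.19 and 4.80 in stimulated WT arrays. Its untreated values were 4.23, 3.99 and 4.35 in Nos2-/- and 4.21, 4.19 and 3.998 in WT. The genotypes overlapped in both states, and the stimulated difference was 0.01 ± 0.12 (adjusted p = 0.988, 95% interval -0.25 to 0.27). Ass1 rose by 0.84 ± 0.12 in Nos2-/- cells (adjusted p = 3.4e-05) and by 0.89 ± 0.12 in WT cells (adjusted p = 2.1e-05), with stimulated and untreated arrays apart in each genotype. The probe set was below the array's median on 2 of 3 stimulated Nos2-/- arrays and on every array of the other groups. A brighter Ass1 probe set is shared with Gm5424 and was not used.

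Asl, which splits argininosuccinate into arginine and fumarate, was nearly level across the groups. Its signal was 8.90, 8.78 and 8.71 in stimulated Nos2-/- arrays, against 8.95, 8.95 and 8.94 in stimulated WT arrays. The untreated values were 8.95, 8.99 and 9.02 in Nos2-/- and 8.95, 8.94 and 8.99 in WT. The stimulated Nos2-/- arrays lay just below the rest, and the difference from stimulated WT of -0.15 ± 0.06 did not pass the test (adjusted p = 0.253, 95% interval -0.29 to -0.02). Asl fell by 0.19 in Nos2-/- cells (SE 0.06, adjusted p = 0.0165), and its WT difference was -0.02 ± 0.06 (adjusted p = 0.846). The difference between these responses, -0.18 ± 0.09, was not called (adjusted p = 0.521). The Nos2-/- call was lost when array medians were set equal, with a difference of -0.07 (adjusted p = 0.364), and without replicate 3 of stimulated Nos2-/- (adjusted p = 0.0626) or of untreated Nos2-/- (adjusted p = 0.0541).

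The 2 arginine transporters moved in opposite directions with stimulation. Slc7a2, which encodes the inducible transporter CAT2, was the brightest of the 10 genes after stimulation, at 12.70, 12.85 and 12.77 in Nos2-/- arrays and 12.67, 12.60 and 12.50 in WT arrays. The untreated values were 6.96, 6.88 and 7.03 in Nos2-/- and 6.17, 6.64 and 6.77 in WT. It rose by 5.81 ± 0.12 in Nos2-/- cells (adjusted p = 1.1e-13) and by 6.07 ± 0.12 in WT cells (adjusted p = 9.2e-14). All 4 Slc7a2 probe sets rose, by 5.81 to 6.66 in Nos2-/- and by 5.87 to 6.94 in WT. Nos2-/- arrays lay above WT arrays without overlap in both states, and neither difference passed the test. It was 0.18 ± 0.12 with stimulation (adjusted p = 0.544, 95% interval -0.08 to 0.44) and 0.43 ± 0.12 without (adjusted p = 0.9999, unadjusted p = 0.00318).

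Slc7a1, which encodes the constitutive transporter CAT1, had signals of 7.91, 7.77 and 7.15 in stimulated Nos2-/- arrays and 7.54, 7.59 and 7.90 in stimulated WT arrays. Untreated arrays were at 8.92, 9.15 and 9.27 in Nos2-/- and at 8.97, 9.02 and 8.90 in WT. It was the most strongly reduced of the 10 genes in each genotype. The signal fell by 1.51 in Nos2-/- cells (SE 0.16, adjusted p = 1.8e-06) and fell by 1.29 in WT cells (SE 0.16, adjusted p = 9.4e-06). A second probe set fell by 1.07 in Nos2-/- and fell by 0.92 in WT, and another, dim one with a mean of 4.47 gave -0.04 in Nos2-/- and -0.02 in WT. The stimulated genotypes overlapped, with a difference of -0.06 ± 0.16 (adjusted p = 0.906, 95% interval -0.41 to 0.29). The lowest of the stimulated Nos2-/- values, 7.15, came from replicate 3, which also had the lowest Arg1, Asl, Odc1 and Azin1 values of its group.

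Gch1 encodes GTP cyclohydrolase 1, which commits GTP to tetrahydrobiopterin. Its signal was 10.94, 10.86 and 11.22 in stimulated Nos2-/- arrays and 11.12, 11.03 and 11.09 in stimulated WT arrays, against 9.31, 9.32 and 9.46 in untreated Nos2-/- and 9.29, 9.23 and 9.32 in untreated WT. Stimulated arrays stood clear of untreated ones in both genotypes, and the genotypes overlapped within each state. Gch1 rose 3.13-fold in Nos2-/- cells (1.65 ± 0.09 on the log2 scale, adjusted p = 8.6e-10) and 3.48-fold in WT cells (1.80 ± 0.09, adjusted p = 4.0e-10). The stimulated genotypes differed by -0.07 ± 0.09 (adjusted p = 0.769, 95% interval -0.26 to 0.12). The second Gch1 probe set gave smaller responses, 0.95 in Nos2-/- and 1.02 in WT. The window with the kappa B letters, printed above, belongs to this gene.

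Odc1 and Azin1, the enzyme that makes putrescine and the protein that frees it from the antizymes that inhibit it, also moved in opposite directions. Odc1 was at 11.01, 10.98 and 10.84 in stimulated Nos2-/- arrays and at 10.89, 10.76 and 10.87 in stimulated WT arrays. Untreated arrays were at 10.06, 10.21 and 10.02 in Nos2-/- and at 10.19, 10.20 and 10.01 in WT. It rose by 0.85 ± 0.08 in Nos2-/- cells (adjusted p = 3.9e-07) and by 0.71 ± 0.08 in WT cells (adjusted p = 2.9e-06), and the stimulated genotypes overlapped. Their difference was 0.11 ± 0.08 (adjusted p = 0.588, 95% interval -0.06 to 0.28), and the 3 Odc1 probe sets did not share a sign, at 0.11, 0.07 and -0.12.

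Azin1 had the lowest signals in stimulated Nos2-/- arrays, at 9.97, 9.93 and 9.82, against 10.34, 10.21 and 10.34 in stimulated WT arrays. Untreated arrays were at 10.76, 10.79 and 10.71 in Nos2-/- and at 10.76, 10.77 and 10.74 in WT. The 2 untreated groups coincided, the stimulated WT arrays lay below them, and the stimulated Nos2-/- arrays lay lower still, with no overlap between these 3 levels. Azin1 fell by 0.85 in Nos2-/- cells (SE 0.06, adjusted p = 3.9e-08) and fell by 0.46 in WT cells (SE 0.06, adjusted p = 2.5e-05). The stimulated genotypes differed by -0.39 ± 0.06, a 1.31-fold lower signal in Nos2-/- (adjusted p = 0.00308). The difference between the 2 responses was also -0.39 (SE 0.09), and it did not pass the test (adjusted p = 0.0647). Of the other 2 Azin1 probe sets, 1 was called at -0.36 (adjusted p = 0.0142) and 1 was not at -0.24 (adjusted p = 0.195) between the stimulated genotypes. In WT cells those other probe sets gave uncalled responses of -0.10 and -0.14.

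**Figure D2:**
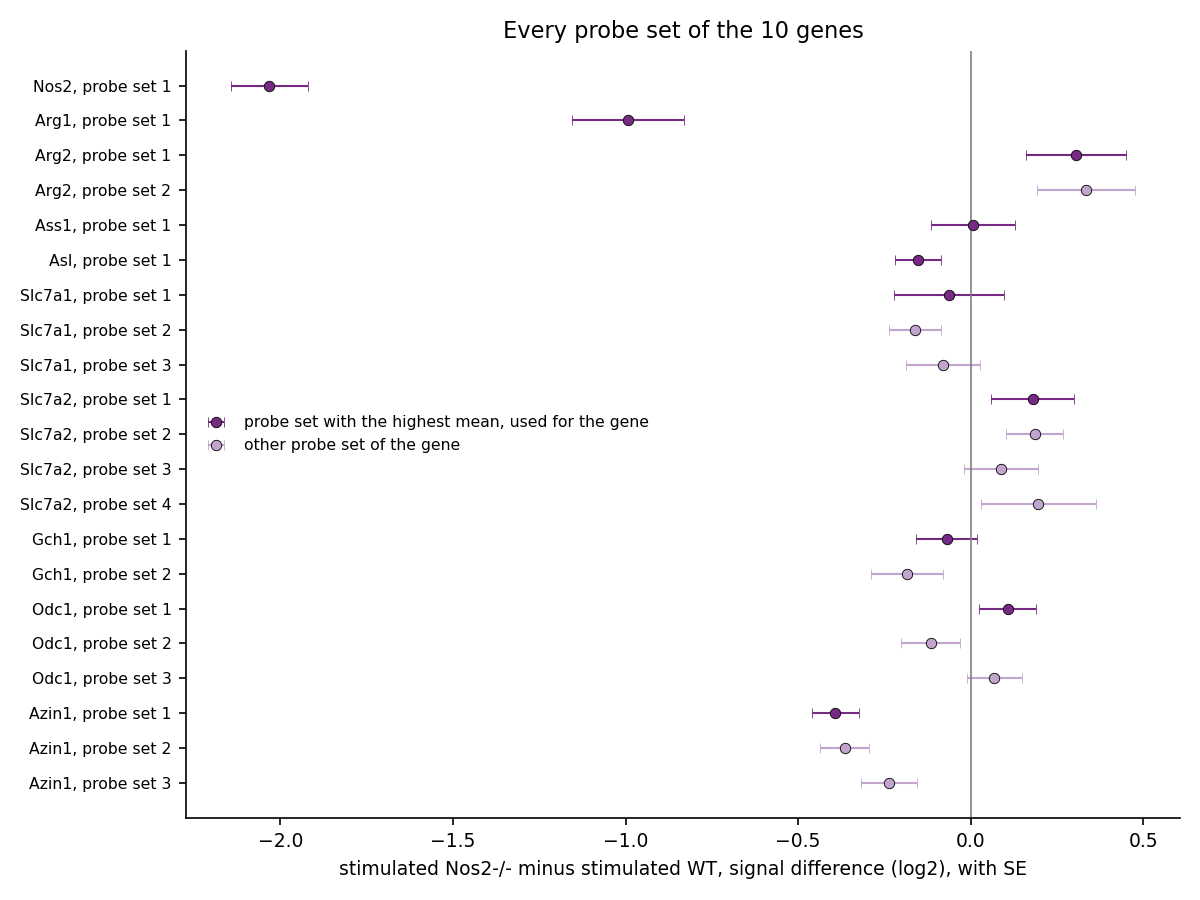
The 21 probe sets of the 10 genes are listed down the page, and the horizontal axis gives the signal difference (log2) of stimulated Nos2-/- minus stimulated WT, with its SE. Dark points are the probe sets used for the genes. The 3 Azin1 probe sets all lie below 0, between -0.39 and -0.24, the 4 Slc7a2 probe sets all lie above 0, between 0.09 and 0.20, and those of Odc1 fall on both sides.

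Over these 21 probe sets, 4 were called lower, 0 higher and 17 were not called between the stimulated genotypes, where 2.05% of all probe sets were called. The 4 were those of Nos2 and Arg1 and 2 of Azin1. With stimulation 14 rose, 6 fell and 1 was not called in Nos2-/- cells (46.1% of all probe sets called), and 14 rose, 3 fell and 4 were not called in WT cells (48.8%). Without stimulation limma called 0 of the 21 between Nos2-/- and WT (0.00666% of all probe sets), and the responses differed for 2, those of Nos2 and Arg1 (0.568%). Between the stimulated genotypes, genes with several probe sets gave the same sign in each of them, except Odc1.

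With stimulation, 7 of the 10 genes rose in Nos2-/- cells and 3 fell, against 26.3% of all genes higher and 28.2% lower in that comparison (54.5% called). In WT cells 7 rose, 2 fell and Asl was not called, against 29.6% of all genes higher and 28.4% lower (58% called). Stimulated and untreated arrays did not overlap for 10 of 10 genes in Nos2-/- cells (60.5% of all genes) and for 9 of 10 in WT cells (65.1%). With array medians set equal, the share of the called genes that rose was 64.9% in Nos2-/- and 64.8% in WT over all genes, against 48.3% in Nos2-/- and 51.1% in WT as deposited. More than 1 in 2 genes on the array was therefore called with stimulation, and being called is itself no mark of these genes. Regardless of sign, their changes had a median size of 1.54 in WT, against 0.27 for all genes. The 10 genes were chosen with earlier results of these data known, so this larger size is not independent of that choice. The same 7 genes rose in both genotypes, namely Nos2, Arg1, Arg2, Ass1, Slc7a2, Gch1 and Odc1, and Slc7a1 and Azin1 fell in both. The order of the 3 largest responses was Arg2, Slc7a2 and Arg1 in each genotype. Each response was taken against the untreated cells of its own genotype, so the 2 response columns share no array.

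**Figure D3:**
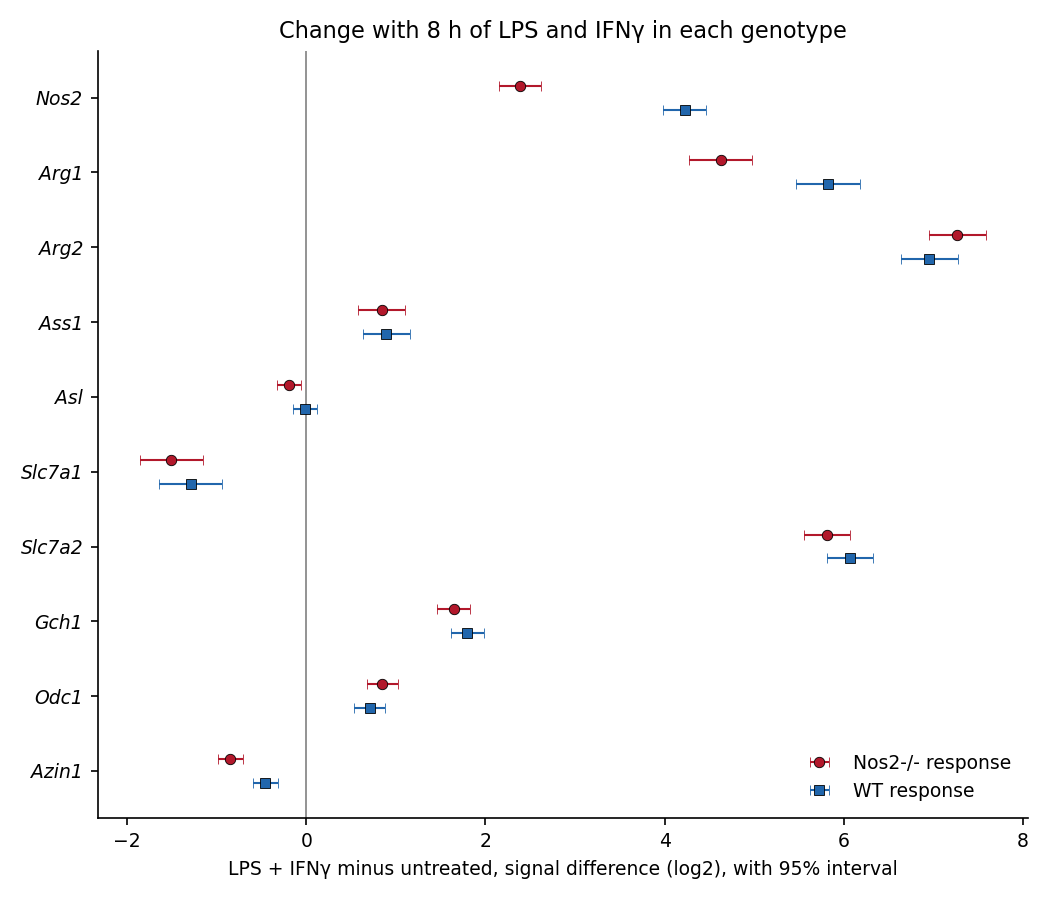
For each gene the horizontal axis gives the signal difference (log2) of stimulated minus untreated cells with its 95% interval, with circles for Nos2-/- and squares for WT. The intervals of the genotypes are apart for Nos2, at 2.39 in Nos2-/- and 4.22 in WT, for Arg1, at 4.62 in Nos2-/- and 5.82 in WT, and for Azin1, at -0.85 in Nos2-/- and -0.46 in WT.

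The responses differed between the genotypes for 2 of the 10 genes, Nos2 and Arg1, both with the smaller response in Nos2-/-. Over all genes, 0.676% had a called difference of that sign, 0.302% of the opposite sign and 0.978% of either. For the other 8 genes the difference between the responses lay between -0.39 (Azin1) and 0.32 (Arg2) and was not called. Without stimulation 0 of the 10 genes was called between the genotypes by limma, where 0.011% of all genes were (0.0055% in each direction). At an unadjusted p under 0.05, for which no share of all genes was taken, the count was 1 of 10, which is Slc7a2. That gene was also the one member whose untreated arrays did not overlap, against 12.6% of all genes.

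**Figure D4:**
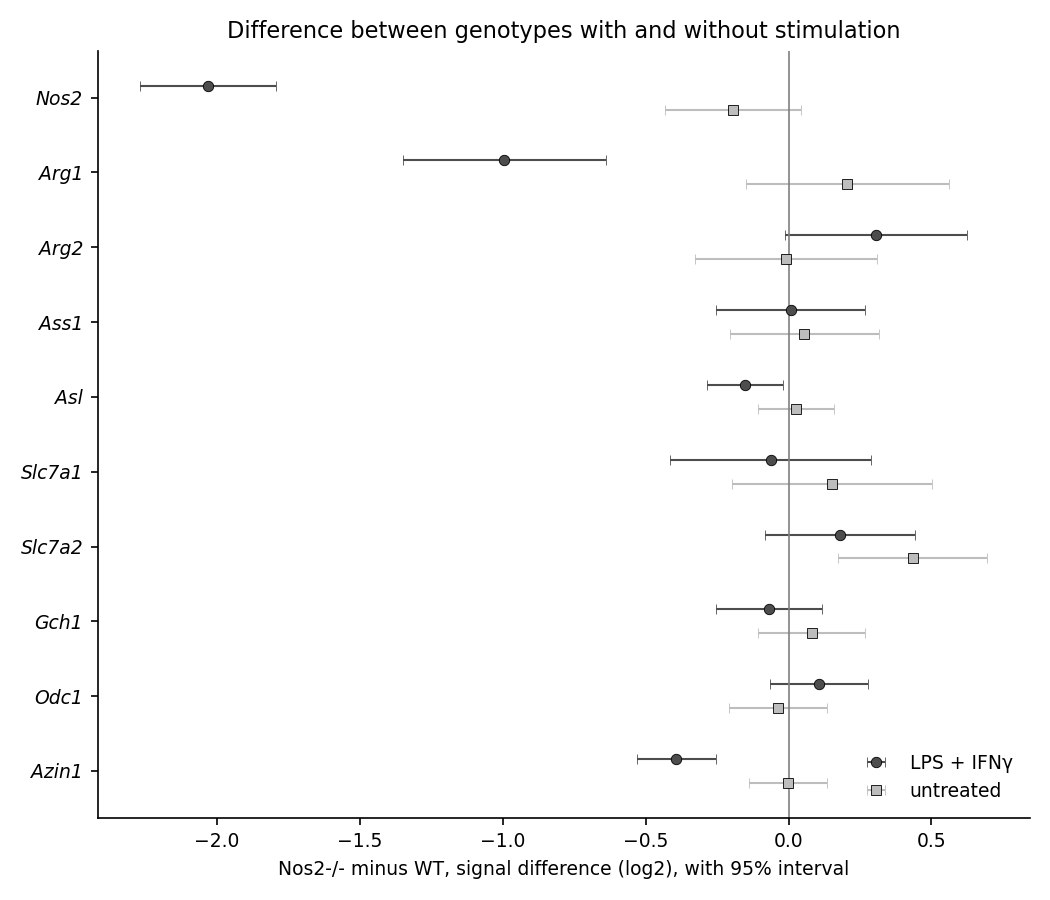
For each gene the horizontal axis gives the signal difference (log2) of Nos2-/- minus WT with its 95% interval, with dark circles for stimulated and pale squares for untreated cells. With stimulation Nos2 (-2.03), Arg1 (-0.99) and Azin1 (-0.39) lie left of 0, while without stimulation the same genes lie at -0.19, 0.21 and -0.0018.

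A list of enzymes of arginine, citrulline and proline, which also takes in creatine genes and some neighbouring enzymes, had 16 other measured genes. Of these, 4 rose and 9 fell with stimulation in Nos2-/- cells, where 26.3% of all genes rose and 28.2% fell. In WT cells 4 rose and 8 fell, where 29.6% of all genes rose and 28.4% fell. Ckb, the brain-type creatine kinase, fell by 2.58 in Nos2-/- and fell by 2.57 in WT, and Gamt, which makes creatine, fell by 1.52 in Nos2-/- and fell by 1.54 in WT. Gatm, the arginine-using first step of creatine synthesis, rose by 1.18 in Nos2-/- and by 1.14 in WT. Prmt1, the main protein arginine methyltransferase, fell by 1.42 in Nos2-/- and fell by 1.32 in WT. Aldh18a1, which leads from glutamate to ornithine and proline, fell by 1.34 in Nos2-/- and fell by 1.33 in WT. Glul, glutamine synthetase, which makes glutamine and none of the amino acids that name the list, fell by 2.00 in Nos2-/- and fell by 1.73 in WT. Glul was also the 1 gene of the 16 that was called between the stimulated genotypes, where 2.94% of all genes were called. It was 0.33 lower in Nos2-/- on the log2 scale (difference -0.33 ± 0.06, adjusted p = 0.0102). Its difference between the responses of -0.27 was not called (adjusted p = 0.260). Padi4, a peptidylarginine deiminase, fell by 0.58 in Nos2-/- (adjusted p = 0.00123) and had a difference of -0.02 in WT, and the difference between these responses, -0.56, was not called (adjusted p = 0.230). The median of the 16 genes in WT was -0.47, against 0.07 for all genes.

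Of 9 further transporters of arginine and ornithine, 3 rose and 2 fell in each genotype, a share of called genes close to that of all genes (54.5% in Nos2-/- and 58% in WT). Slc38a2, which is known as a carrier of small neutral amino acids and not of arginine, supplied 1 of the 2 falls and fell by 1.42 in Nos2-/- and fell by 1.48 in WT, and Slc7a6, which exchanges arginine for neutral amino acids, fell by 1.06 in Nos2-/- and fell by 1.00 in WT. Slc7a7, the related macrophage exchanger, rose by 0.52 in both genotypes, and its partner Slc3a2 rose by 0.37 in Nos2-/- and by 0.55 in WT. Slc7a3, another cationic transporter, had differences of 0.09 in Nos2-/- and 0.20 in WT, and neither was called. None of the 9 was called between the stimulated genotypes by limma, where 2.94% of all genes were called. At an unadjusted p under 0.05, for which no share of all genes was taken, the count was 1.

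Of 6 measured tetrahydrobiopterin genes other than Gch1, 1 rose and 3 fell in Nos2-/- cells, where 26.3% of all genes rose and 28.2% fell. In WT cells 2 rose and 3 fell, where 29.6% of all genes rose and 28.4% fell. Spr, sepiapterin reductase, which catalyses the last step of synthesis, fell by 1.79 in Nos2-/- and fell by 1.53 in WT. Qdpr, which regenerates tetrahydrobiopterin after use, fell by 1.78 in Nos2-/- and fell by 1.81 in WT. Pcbd2, a recycling dehydratase, fell by 0.86 in Nos2-/- and fell by 0.67 in WT, and its relative Pcbd1 rose by 0.43 in Nos2-/- and by 0.41 in WT. Gchfr, whose product restrains the Gch1 enzyme, rose by 0.22 in WT (adjusted p = 0.0182) and had an uncalled difference of 0.13 in Nos2-/-. Pts, the middle step of synthesis, had differences of -0.10 in Nos2-/- and -0.21 in WT and was not called. None of the 6 was called between the stimulated genotypes by limma, where 2.94% of all genes were called. At an unadjusted p under 0.05, for which no share of all genes was taken, the count was 0.

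All 12 measured polyamine genes were called with stimulation in both genotypes, 4 higher and 8 lower in each, where 54.5% of all genes were called in Nos2-/- and 58% in WT. Srm, spermidine synthase, fell by 2.87 in Nos2-/- and fell by 2.76 in WT, and Mtap, which salvages the by-product of polyamine synthesis, fell by 2.62 in Nos2-/- and fell by 2.69 in WT. Smox, spermine oxidase, rose by 1.72 in Nos2-/- and by 1.77 in WT. Atp13a3, a polyamine transporter, fell by 1.83 in Nos2-/- and fell by 1.65 in WT. None of the 12 was called between the stimulated genotypes by limma, where 2.94% of all genes were called. At an unadjusted p under 0.05, for which no share of all genes was taken, the count was 3. Among these 4 lists, 0 genes were called between the untreated genotypes (0.011% of all genes) and 0 had a called difference between the responses (0.978%).

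**Figure D5:**
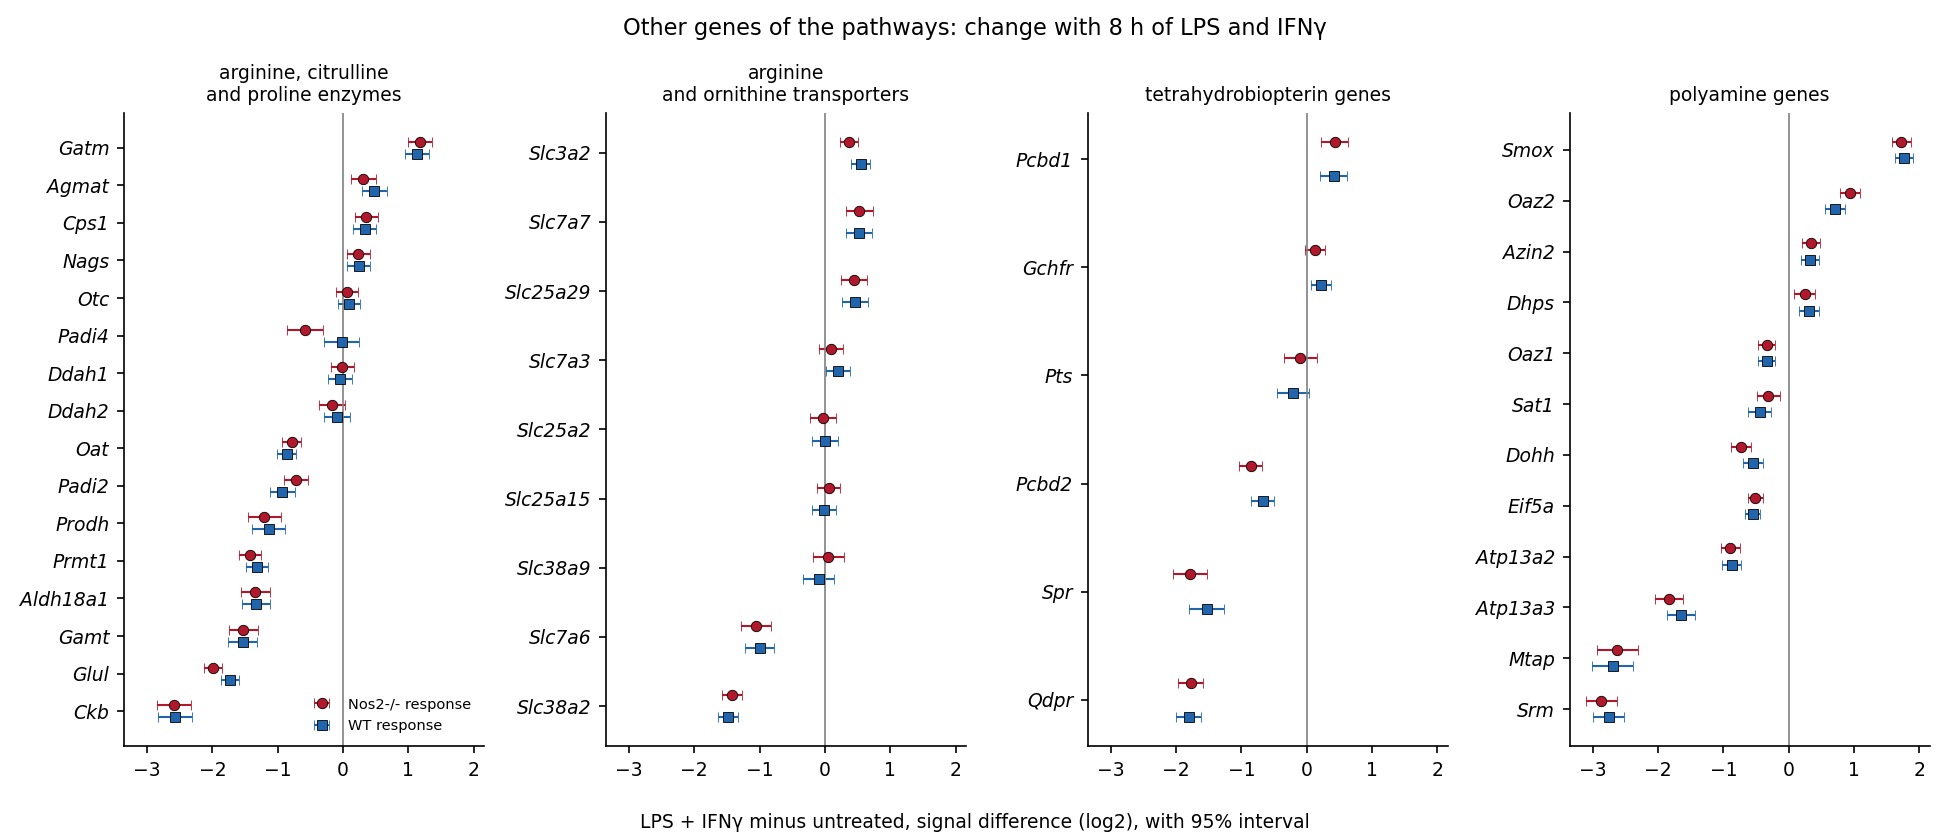
The 4 panels hold the measured genes of the 4 lists, ordered by their WT response, and the horizontal axes give the signal difference (log2) of stimulated minus untreated cells with its 95% interval, with circles for Nos2-/- and squares for WT. Ckb, Srm, Mtap and Qdpr lie far to the left in both genotypes, Smox and Gatm lie to the right, and Padi4 is at -0.58 in Nos2-/- and -0.02 in WT.

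The genes whose signal followed that of Nos2 most closely over the 12 arrays were Ubap1 (Pearson r = 0.999), Suco (0.997), Mafg (0.994), Hmox1 (0.994) and Rmc1 (0.992). These values describe points that fall into 4 groups, and such points share their group means. Hmox1, which encodes heme oxygenase 1, had means of 12.74 in stimulated Nos2-/- and 13.67 in stimulated WT, and of 11.40 in untreated Nos2-/- and 11.50 in untreated WT. Mafg, a small Maf transcription factor, had means of 10.90 in stimulated Nos2-/- and 11.34 in stimulated WT, against 10.31 in untreated Nos2-/- and 10.30 in untreated WT. For Arg1 the closest genes were Cxcl3 (r = 0.997), a neutrophil-attracting chemokine, Ero1a (0.997), an oxidase of the endoplasmic reticulum, and Serpinb9 (0.996), an inhibitor of granzyme B. Cxcl3 had means of 11.03 in stimulated Nos2-/- and 11.81 in stimulated WT, and of 5.81 in untreated Nos2-/- and 5.49 in untreated WT.

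The cells carried macrophage markers throughout. The summed signal of 9 such markers lay between 16.19 and 16.24 (log2) on all arrays, and 0 of the 9 was below the array's median. Single markers did move with stimulation, and 3 of the 9 rose and 5 fell in each genotype. All genes rose at 26.3% and fell at 28.2% in Nos2-/-, and rose at 29.6% and fell at 28.4% in WT. Cd68 fell by 0.91 in Nos2-/- and fell by 0.87 in WT, and Fcgr1 rose by 1.27 in Nos2-/- and by 1.24 in WT. The summed signal of 8 neutrophil markers was 12.94 to 13.01 in stimulated Nos2-/- and 12.62 to 12.66 in stimulated WT, against 10.49 to 10.96 in untreated Nos2-/- and 10.31 to 10.71 in untreated WT. With stimulation 4 of the 8 rose in Nos2-/- (26.3% of all genes) and 5 of 8 in WT (29.6%). S100a8 was the brightest of them, with means of 12.67 in stimulated Nos2-/- and 12.27 in stimulated WT. It had the largest rise of the 8, by 3.57 in Nos2-/- and by 3.39 in WT. Of the granule genes, Camp rose by 0.96 in Nos2-/- and by 0.82 in WT, Mmp8 by 0.72 in Nos2-/- and by 0.71 in WT, and Mpo by 0.46 in Nos2-/- and by 0.29 in WT. S100a9, Elane and Ltf were not called in either genotype. The receptor gene Cxcr2 was below the median on every array, and its rise was called in WT only (limma adjusted p = 0.0495). For 6 dendritic cell markers the sum was 8.82 to 9.13 in stimulated Nos2-/- and 8.49 to 8.81 in stimulated WT, against 7.55 to 7.64 in untreated Nos2-/- and 7.54 to 7.60 in untreated WT. With stimulation 2 of the 6 rose in Nos2-/- (26.3% of all genes) and 4 of 6 in WT (29.6%). The brightest after stimulation was Ccr7, which activated dendritic cells and macrophages express. It had means of 8.33 in stimulated Nos2-/- and 7.83 in stimulated WT, and of 5.02 in untreated Nos2-/- and 4.91 in untreated WT. Between the stimulated genotypes Ccr7 differed by 0.50, Siglech by 0.11 and Zbtb46 by 0.03 (Nos2-/- minus WT). Flt3 (-0.11), Xcr1 (-0.12) and Itgae (-0.13) differed in the opposite direction. For 5 erythroid and megakaryocyte markers the sum was 10.99 to 11.25 in stimulated Nos2-/- and 11.26 to 11.56 in stimulated WT, against 12.60 to 12.72 in untreated Nos2-/- and 12.62 to 12.81 in untreated WT. The brightest of these was Pf4, with means of 10.97 in stimulated Nos2-/- and 11.27 in stimulated WT, against 12.62 in untreated Nos2-/- and 12.66 in untreated WT. In WT, Pf4 was the 1 of 5 called lower (28.4% of all genes), and Itga2b was called higher, by 0.42 (29.6%). In Nos2-/- 1 of 5 was called lower (28.2%) and 0 higher (26.3%). Between the stimulated genotypes Pf4 differed by -0.30 (limma, unadjusted p = 0.00784, adjusted p = 0.134). The stimulated genotypes did not overlap in any of these 3 sums. The largest part of each sum came from its brightest gene, S100a8, Ccr7 or Pf4, so a sum is not a count of cells. None of the 19 markers of these 3 lists was called between the stimulated genotypes by limma, where 2.94% of all genes were called. At an unadjusted p under 0.05, for which no share of all genes was taken, there were 3. The part of these markers in the results was not tested.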

How the data were processed

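Per the labels and the study's methods, RNA of BMDM was hybridised to Affymetrix arrays, and the authors normalized the scans by RMA in Partek (version not given in the sources used here) and deposited log2 values per probe set. Of 45101 probe sets, 64 controls were left out, and 34945 named 1 gene in the platform annotation. The probe set with the highest mean over 12 arrays stood for each of 18193 genes, and the 10 genes described had 21 probe sets.

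A group-means model of all 12 arrays was fitted to every gene in limma 3.58.1 (R 4.3.3) with moderated variances and no added filter, after recovery of known changes was tested on simulated data. P-values were two-sided, adjusted by Benjamini-Hochberg over all genes, and called under 0.05. The study's own thresholds (1.5-fold, false discovery rate under 0.5) were an alternative, beside 2 scalings, other probe set choices, other variance models, a filter on dim genes, the replicate block and leaving out each array. Replicates are labelled biological. The number of arrays limits the precision.

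The genes, the lists beside them and the tests were chosen with earlier results of these data known. All 10 genes are named in each comparison, with up to 4 called genes per list ranked by size and the closest genes by Pearson r for Nos2 (5) and Arg1 (3). Those named outside this rule were chosen after their values were seen (Gatm, Padi4, Slc7a3, Gchfr, Pts and the markers). Some listed genes are not reported here.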

Additional observations from a re-analysis of the deposited data

Results flagged for a closer look

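The response of Nos2 to LPS and IFNγ differed between the genotypes, by -1.84 (Nos2-/- response minus WT response, log2, SE 0.16, limma adjusted p = 3.7e-05). It was flagged because the difference itself passed the test. Nos2 is the targeted gene, so this difference is not a finding apart from the genotype itself. All 3 stimulated Nos2-/- arrays were below all 3 stimulated WT arrays. The difference kept its call under each of the 21 alternatives.

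The response of Arg1 differed in the same way, by -1.20 (SE 0.23, adjusted p = 0.0274), again with all 3 stimulated Nos2-/- arrays below all 3 stimulated WT arrays. The call held under 12 of the 21 alternatives, with adjusted p between 0.00502 and 0.150.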

How the results depend on the processing

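Over the 50 results for the 10 genes, 794 of 845 alternative values kept direction and call, 18 lost the call, 3 gained it and 30 changed sign, none of the 30 from a called value. The number of genes called was 2 to 3 between the stimulated genotypes (3 as reported), 9 to 10 in the Nos2-/- response (10), 8 to 9 in the WT response (9) and 0 throughout between the untreated genotypes. For the difference between the responses it was 1 to 3 (2), with 1 called without variance moderation and 1 with the replicate block. There Arg1 was lost, at adjusted p = 0.150 without moderation and 0.0570 with the block. Leaving out single arrays gave 1 to 2 called, and Arg1 was lost without untreated Nos2-/- replicate 2 or 3, stimulated WT replicate 1 or 3, or untreated WT replicate 1, 2 or 3 (adjusted p 0.0506 to 0.0859). The deviations of same-numbered arrays from their group means correlated at -0.26 to 0.21, and those of other arrays at -0.17 to 0.27. Whether same-numbered arrays shared a donor or a culture day cannot be told from these values. The replicate block changed no other count of the 10 genes.

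Azin1 between the stimulated genotypes lost its call with only the compared arrays fitted (adjusted p = 0.0574) and under the study's fold threshold, and its difference between the responses gained one with an intensity trend (0.00852), quantile normalization or without dim genes. Asl in Nos2-/- cells lost its call under 6 of 16 alternatives. Setting array medians equal moved the median of all genes by 0.12 in the Nos2-/- response and 0.10 in the WT response.

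The sign of the Asl WT response was positive with equal medians (0.0876) and quantile normalization (0.1166). Between the untreated genotypes Azin1 was 0.0086 with quantile normalization, the mean of a gene's probe sets gave 0.0034 for Arg2, -0.0185 for Gch1, 0.0339 for Odc1 and 0.0295 for Azin1, and Odc1 was 0.0658 without probe sets that may cross-hybridise. The difference between the responses was 0.0055 for Ass1 with quantile normalization and -0.014 for Odc1 with the mean of probe sets. Leaving out single arrays moved the stimulated difference over -0.1046 to 0.1062 for Ass1, -0.2104 to 0.1661 for Slc7a1 and -0.1759 to 0.0032 for Gch1. It moved the untreated difference over -0.1947 to 0.1235 for Arg2, -0.0269 to 0.1555 for Ass1, -0.0988 to 7e-04 for Odc1 and -0.0225 to 0.0204 for Azin1, and the difference between the responses over -0.16 to 0.0508 for Ass1 and -0.3616 to 0.0149 for Slc7a1. The cause of these changes was not tested. Ass1 and the untreated arginases lie below the array medians, where the signal limits what can be resolved.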
